A study of Mus musculus with 12 samples.

Results

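Genes of T cells, of killer lymphocyte granules and of natural killer (NK) cells were described in murine neuroblastoma tumors after high intensity focused ultrasound (HIFU). The 33 genes were named by symbol, 15 of T cells and 18 of cytotoxic and NK cells, and all 33 had a probe set among the 19505 genes with a named probe set (22206 probe sets in all). The tumors came from neuroblastoma cells inoculated into A/J mice, an inbred strain, and each was hybridized to 1 Affymetrix Clariom S mouse array. HIFU heats or breaks up tissue with focused sound, and 3 tumors carry the label 24 h, 3 the label 48 h and 3 the label 72 h. Another 3 tumors were untreated controls, which share the tumor model, the strain and the frozen whole-tissue preparation. The labels do not say whether the hours were counted from the end of HIFU, whether a tumor was 1 animal, or which neuroblastoma line was used.

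Killer lymphocytes recognise other cells through surface receptors. In T cells the antigen receptor signals through the CD3 chains and the zeta chain, with CD4 or CD8 as coreceptor, while NK cells weigh signals from activating and inhibitory receptors. Both release perforin and granzymes from granules, and both can secrete interferon gamma and chemokines that draw in other leukocytes. In whole tumor tissue, fewer such cells and less RNA per cell cannot be told apart.

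Most of the 33 genes gave dim signals, and 0 of them differed between any HIFU time and untreated tumors past the threshold of adjusted p = 0.05 (limma, Benjamini-Hochberg over all probe sets). The cytotoxic and NK genes tended to lie below control, with median log2 differences of -0.44 at 24 h, -0.32 at 48 h and -0.23 at 72 h. Without control replicate 1 these medians were -0.17, -0.085 and -0.088, all over 1.5 times smaller. Leaving out control replicate 2 instead moved the 24 and 48 h medians further below control, as given at the end. The T cell genes lay nearer to control, with medians of -0.13, 0.00 and 0.05, and the last was -0.076 after quantile normalization and -0.095 after median centring. Leaving out single arrays put the T cell median on both sides of 0 at each time. The median over all probe sets was 0.00, 0.01 and -0.06. Klrd1 and Prf1 were the 2 genes whose 9 HIFU arrays all lay below all 3 controls, as did 1.65% of all probe sets, and 0 genes had all 9 above (1.76%). The 3 comparisons share the control arrays, so a high or low control moves all 3.

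The signals are log2 values per probe set, and the lowest 25% holds genes with a group mean below the 25th percentile of that group's means over all probe sets. That limit was 3.59 at 24 h, 3.62 at 48 h, 3.49 at 72 h and 3.49 in controls. The lowest 25% held 18 of the 33 genes at 24 h, 16 at 48 h, 13 at 72 h and 10 in controls. Of the 18 cytotoxic and NK genes, 12, 12, 9 and 6 were in the lowest 25% in the same order of groups, and of the 15 T cell genes 6, 4, 4 and 4. In all 4 groups it held 7 genes, the T cell genes Cd5, Zap70 and Trat1 and the cytotoxic and NK genes Gzmk, Klrb1c, Eomes and Fasl. Another 12 were there in some groups and 14 in none, namely 9 T cell genes (Cd3d, Cd3e, Cd247, Cd4, Cd8b1, Cd2, Cd28, Lat and Icos) and 5 others (Klrk1, Ifng, Ccl5, Xcl1 and Ctsw). Only Cd4 and Lat had a mean over the 12 arrays above the median probe set, and 28 of the 33 had a mean less than 1 log2 unit above the 25th percentile or below it. A dim signal leaves little room for a lower value to show.

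**Figure D1:**
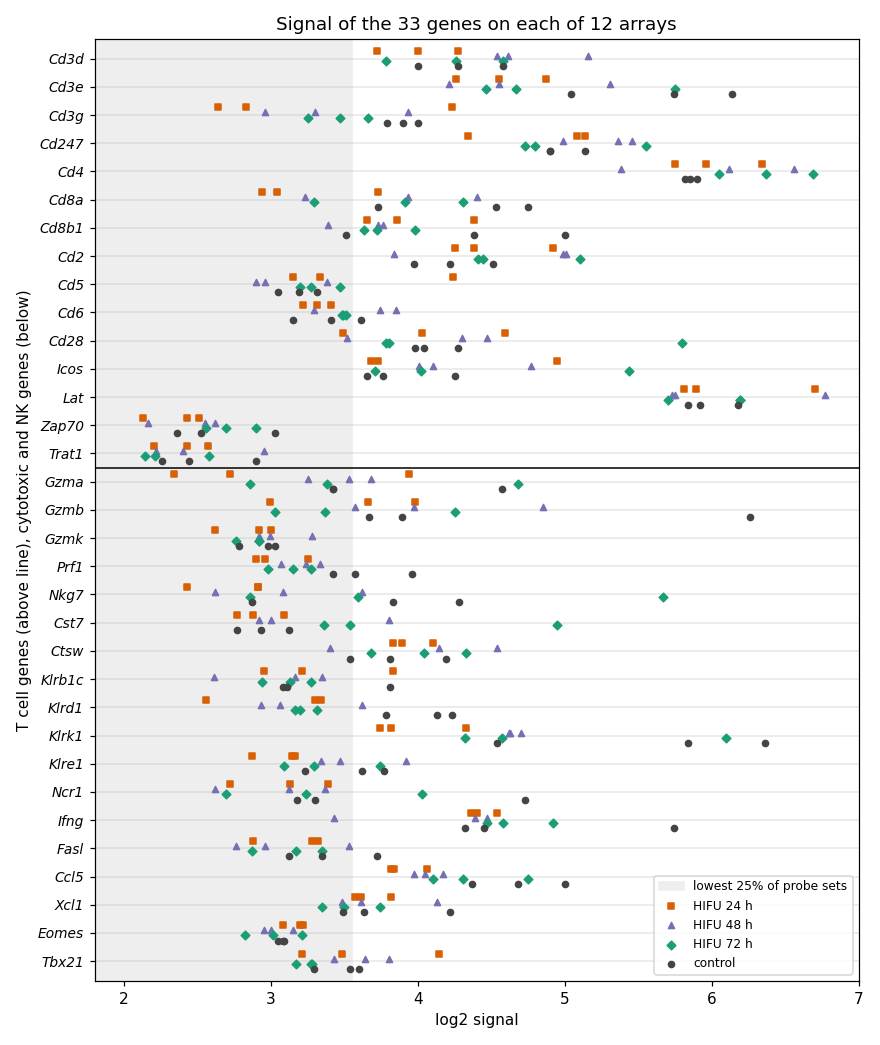
Log2 signal (horizontal axis) of the 33 genes on each of 12 arrays, with symbols for the 3 arrays each of HIFU 24, 48 and 72 h and control, T cell genes above the line and cytotoxic and NK genes below. The grey area is the lowest 25% of all probe sets by the mean over 12 arrays (below 3.55); most cytotoxic and NK genes lie in it or beside it, and single arrays stand apart for Gzmb, Ncr1 and Ifng (control replicate 1) and for Nkg7, Cst7 and Cd28 (HIFU 72 h replicate 2).

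The arrays themselves differed in other cell types. Median signals of the arrays were 5.43 to 5.68. Neuroblastoma and sympathetic markers (13 of 14 measured) were plainly present, with array medians between 10.35 and 12.58. The median of 18 skeletal muscle genes lay 2.02 to 5.44 above the control mean on the 9 HIFU arrays, and at -1.41, -0.71 and 2.19 on the controls. The median of 11 neutrophil markers lay 5.72 to 9.73 above the control mean at 72 h, -0.05 to 2.54 at 24 h and 0.94 to 5.27 at 48 h, against -0.11 to 0.27 in controls. The part of these tissues and cells in the results below was not tested.

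The CD3 complex carries the antigen receptor's signal into the cell. Its genes were below control in 4 of 4 at 24 h, 2 of 4 at 48 h and 3 of 4 at 72 h. The medians were -0.475, -0.105 and -0.257. Cd3e (epsilon chain) had signals of 4.55, 4.26 and 4.87 at 24 h, 4.21, 5.31 and 4.55 at 48 h, and 4.46, 5.75 and 4.67 at 72 h, against 6.14, 5.04 and 5.74 in controls. All 3 arrays at 24 h lay below all controls, while at 48 and 72 h the groups overlapped. The log2 difference was -1.08 ± 0.41 SE at 24 h (limma, unadjusted p = 0.0228, adjusted p = 0.439), -0.95 at 48 h (adjusted p = 0.354) and -0.68 at 72 h (adjusted p = 0.572). Without HIFU 72 h replicate 2, the one 72 h array inside the control range, the 72 h difference was -1.08 (adjusted p = 0.847), and without control replicate 1 it was -0.43 (adjusted p = 0.884). An adjusted p depends on all probe sets of its fit. Here and below, adjusted p-values of different fits therefore cannot be compared for a single gene.

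Cd3g (gamma chain) had 2.64, 2.83 and 4.23 at 24 h, 3.30, 3.93 and 2.96 at 48 h, and 3.47, 3.66 and 3.25 at 72 h, against 4.0, 3.79 and 3.90 in controls. It lay below all controls at 72 h, by 0.44 on average (-0.44 ± 0.39 SE, adjusted p = 0.740, limma), and its 24 h mean, at -0.66 from control, held the highest array of all 12. Cd3d (delta chain) had 3.72, 4.27 and 4.0 at 24 h, 5.16, 4.54 and 4.61 at 48 h, and 4.26, 4.58 and 3.78 at 72 h, against 4.0, 4.27 and 4.58 in controls. Its 48 h arrays lay above all 24 h arrays (difference 0.77 ± 0.28 SE, unadjusted p = 0.0184, adjusted p = 0.999, limma), and each time overlapped the controls. Cd247, the zeta chain that NK cells also use, averaged 4.85 ± 0.45 (SD, n = 3) at 24 h, 5.27 ± 0.25 at 48 h and 5.03 ± 0.46 at 72 h, against 4.98 ± 0.14 in controls. The epsilon and gamma chains were thus on average below control at each time, and the delta and zeta chains below it at 24 h and above it at 48 h.

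Among the coreceptors, the CD8 chains were on average below control at each time and Cd4 above it. Only Cd4 at 72 h had arrays all on 1 side of all controls. Cd8a, the chain found on cytotoxic T cells and on some dendritic cells, had 3.73, 3.04 and 2.94 at 24 h, 3.23, 3.93 and 4.40 at 48 h, and 3.29, 3.91 and 4.31 at 72 h, against 4.75, 3.73 and 4.53 in controls. Its 24 h arrays lay at or below the lowest control, with a difference of -1.10 ± 0.39 SE (limma, unadjusted p = 0.0169, adjusted p = 0.412), and its differences at 48 and 72 h were -0.48 and -0.50 (adjusted p = 0.617 and 0.688). Cd8b1, the beta chain that marks conventional CD8 T cells, had 4.38, 3.65 and 3.86 at 24 h, 3.73, 3.76 and 3.39 at 48 h, and 3.63, 3.98 and 3.72 at 72 h, against 4.38, 3.51 and 5.0 in controls. The widest spread was among the controls, which spanned every HIFU array except the lowest, 3.39 at 48 h. Cd4, the coreceptor of helper T cells, which some dendritic cells also carry, had 6.34, 5.75 and 5.96 at 24 h, 5.38, 6.56 and 6.12 at 48 h, and 6.05, 6.69 and 6.37 at 72 h, against 5.85, 5.90 and 5.82 in controls. The 72 h arrays lay above all controls (0.51 ± 0.30 SE, adjusted p = 0.562, limma).

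The adhesion and costimulatory receptors lay near or above control. Over Cd2, Cd5, Cd6, Cd28 and Icos the differences ran between -0.08 and 0.39 at 24 h, -0.10 and 0.41 at 48 h, and 0.10 and 0.50 at 72 h, and 0 of the 5 had groups that did not overlap with the controls. Cd28, the receptor for the second signal of T cell activation, and Icos, its relative on activated T cells, were highest of all on HIFU 72 h replicate 2, at 5.80 and 5.44. Without that array their 72 h differences were -0.31 and -0.02, against 0.36 and 0.50 with it. Cd5, a receptor that restrains antigen receptor signals, had 3.15, 3.33 and 4.24 at 24 h, 2.90, 2.96 and 3.38 at 48 h, and 3.20, 3.27 and 3.47 at 72 h, against 3.19, 3.31 and 3.05 in controls, so 1 array at 24 h stood apart. Of the signaling proteins next to the receptor, the kinase Zap70 and the adaptor Trat1 were in the lowest 25% throughout, and the adaptor Lat, which mast cells and platelets also use, differed from control by 0.05 to 0.15.

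Granule genes were below control at 24 h in 6 of 7, with a median of -0.61, and at 48 and 72 h in 4 of 7, with medians of -0.32 and -0.06. Without control replicate 1 the medians were -0.24, 0.18 and 0.22, with 6, 2 and 3 of 7 below control, and without HIFU 72 h replicate 2 the 72 h median was -0.44. Prf1, which encodes perforin, the protein that opens the target cell membrane, had 2.96, 2.90 and 3.25 at 24 h, 3.33, 3.07 and 3.24 at 48 h, and 2.98, 3.15 and 3.27 at 72 h, against 3.96, 3.42 and 3.57 in controls. Every HIFU array lay below every control, by a small margin and in the lowest 25%. The differences were -0.61 ± 0.21 SE at 24 h (adjusted p = 0.407), -0.44 at 48 h (adjusted p = 0.402) and -0.52 at 72 h (adjusted p = 0.398, limma). They were -0.46, -0.28 and -0.36 without control replicate 1.

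Gzmb, the granzyme that cleaves caspases in target cells, had 3.66, 2.99 and 3.98 at 24 h, 3.57, 4.85 and 3.97 at 48 h, and 3.03, 4.25 and 3.37 at 72 h, against 6.26, 3.67 and 3.89 in controls. Control replicate 1 was far above all others, and the other 2 controls lay among the HIFU arrays. The differences of -1.06 ± 0.63 SE at 24 h, -0.48 at 48 h and -1.06 at 72 h (adjusted p = 0.610, 0.781 and 0.565, limma) were -0.24, 0.35 and -0.23 without that array. Gzma and Gzmk, granzymes of another cleavage type, differed by -0.80 and -0.08 at 24 h. Nkg7, a granule membrane protein, ran from 2.43 at 24 h up to 5.67 on HIFU 72 h replicate 2, and its 72 h difference was 0.38 with that array and -0.44 without it.

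Cst7 went the other way. It encodes cystatin F, an inhibitor of the cathepsins that activate granzymes, which myeloid cells also make. Its signals were 3.09, 2.88 and 2.77 at 24 h, 2.92, 3.00 and 3.80 at 48 h, and 3.36, 4.95 and 3.54 at 72 h, against 2.93, 3.12 and 2.77 in controls. All 3 arrays at 72 h lay above all controls and above all 24 h arrays. The difference from control at 72 h was 1.01 ± 0.39 SE (limma, unadjusted p = 0.0242, adjusted p = 0.374), and 0.51 (adjusted p = 0.923) without HIFU 72 h replicate 2. Neutrophil and macrophage markers were highest on that same array, with medians of 9.73 and 2.85 above the control mean. On HIFU 48 h replicate 2 these medians were 3.91 and 2.02, while Cst7 was 3.00, inside the control range. The source of the Cst7 signal was not tested. Ctsw, a cathepsin of killer lymphocytes, differed by 0.09 to 0.18.

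The 3 granule genes with the widest range over the 12 arrays were Gzmb (3.27), Nkg7 (3.24) and Gzma (2.34), and the 250 bases before their annotated starts follow, since T-box factors such as those encoded by Eomes and Tbx21 are known regulators of killer cell genes. Sequences are RefSeq's, of build GRCm38.p6, which is C57BL/6J and not A/J. The Gzmb window is chr14:56262335-56262584 (minus strand), the Nkg7 window chr7:43436888-43437137 (plus strand) and the Gzma window chr13:113100982-113101231 (minus strand). Each is written 5′ to 3′ in the gene's direction and lies just outside the annotated gene. Capitals mark matches, on either strand, to the T-box core TCACACC or the ISRE core, the interferon response element.
Gzmb: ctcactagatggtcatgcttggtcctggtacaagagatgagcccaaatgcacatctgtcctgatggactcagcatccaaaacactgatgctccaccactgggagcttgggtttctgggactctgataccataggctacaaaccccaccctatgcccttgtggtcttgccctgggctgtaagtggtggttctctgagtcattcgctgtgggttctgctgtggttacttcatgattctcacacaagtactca
Nkg7: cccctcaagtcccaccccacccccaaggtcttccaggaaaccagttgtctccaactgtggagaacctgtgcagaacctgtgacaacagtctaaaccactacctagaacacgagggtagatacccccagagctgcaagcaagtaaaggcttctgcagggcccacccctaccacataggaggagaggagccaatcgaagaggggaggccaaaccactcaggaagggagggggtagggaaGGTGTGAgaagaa
Gzma: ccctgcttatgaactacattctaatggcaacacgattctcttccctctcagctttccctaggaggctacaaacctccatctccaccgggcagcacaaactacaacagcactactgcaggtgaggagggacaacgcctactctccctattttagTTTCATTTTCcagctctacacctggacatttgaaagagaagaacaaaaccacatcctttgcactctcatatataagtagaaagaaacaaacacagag
Nkg7 held a T-box match in reverse at -13, counted from the annotated start. Gzma held an ISRE match in reverse at -97, and Gzmb held neither in this window. Of the 33 genes, 24 had a window in the table, and 4 of these held the T-box core (Gzmk, Nkg7, Trat1 and Xcl1) and 2 the ISRE core (Eomes and Gzma). Over all 27025 genes of the table the shares were 3.84% and 3.46%. A match of letters is a description and shows no binding.

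Receptors of NK cells were below control in 5 of 5 at 24 h, 4 of 5 at 48 h and 5 of 5 at 72 h, with medians of -0.66, -0.70 and -0.42, which are the differences of Ncr1. Without control replicate 1 the medians were -0.44, -0.20 and -0.13, and 4, 4 and 3 of the 5 lay below control. Without HIFU 72 h replicate 2 the 72 h median was -0.77. Klrd1 encodes CD94, the partner that some NKG2 receptors need to read the class I molecule Qa-1. It had 3.30, 2.56 and 3.34 at 24 h, 3.06, 2.93 and 3.62 at 48 h, and 3.31, 3.16 and 3.20 at 72 h, against 3.78, 4.23 and 4.13 in controls. Every HIFU array was below every control, and all 3 HIFU group means were in the lowest 25% while the control mean was not. The differences were -0.98 ± 0.27 SE at 24 h (unadjusted p = 0.00384, adjusted p = 0.296), -0.84 at 48 h (adjusted p = 0.258) and -0.82 at 72 h (adjusted p = 0.327, limma). With array weights, an alternative that gives less say to arrays far from their group, Klrd1 passed at 24 h (-0.98, adjusted p = 0.0362) and at 72 h (-0.89, adjusted p = 0.0192) but not at 48 h (adjusted p = 0.0581, limma). Array weights also called far more of all probe sets than the main fit did, as counted at the end. The largest weight, 4.195, went to control replicate 2, the array where Klrd1 was highest (4.23).

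Klrk1 encodes NKG2D, which recognises ligands that stressed and transformed cells display. It had 4.33, 3.82 and 3.74 at 24 h, 4.70, 4.62 and 4.63 at 48 h, and 4.32, 6.10 and 4.57 at 72 h, against 5.84, 4.54 and 6.36 in controls. The 24 h arrays lay below all controls and below all 48 h arrays, and control replicate 2 lay among the HIFU arrays of the later times. The 24 h difference, -1.62 ± 0.50 SE (limma, unadjusted p = 0.00783, adjusted p = 0.356), was the largest of the 33 genes in any of the 3 comparisons with control. It was -0.93 at 48 h (adjusted p = 0.443) and -0.58 at 72 h (adjusted p = 0.726), the last being -1.14 without HIFU 72 h replicate 2 (adjusted p = 0.876) and -0.19 without control replicate 3.

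Klre1, a lectin-like receptor of NK cells, had 2.87, 3.16 and 3.14 at 24 h, 3.34, 3.92 and 3.47 at 48 h, and 3.09, 3.29 and 3.74 at 72 h, against 3.62, 3.23 and 3.77 in controls. At 24 h it lay below all controls, and at 48 and 72 h it overlapped them (24 h difference -0.48 ± 0.25 SE, adjusted p = 0.572, limma). Ncr1, which encodes NKp46, a receptor largely restricted to NK and related innate lymphoid cells, had 3.39, 2.72 and 3.13 at 24 h, 2.62, 3.12 and 3.37 at 48 h, and 2.69, 4.03 and 3.24 at 72 h, against 4.73, 3.30 and 3.18 in controls. Control replicate 1 and HIFU 72 h replicate 2 stood above the other 10 arrays. The Ncr1 differences were -0.66, -0.70 and -0.42 over all arrays and -0.16, -0.20 and 0.08 without that control, and the 72 h difference was -0.77 without HIFU 72 h replicate 2. Klrb1c, the NK1.1 receptor, had group means in the lowest 25% throughout and a 24 h difference of -0.003. Genes of the Klr family have near relatives in the same cluster. How far their probes tell these apart, or match the genes of the A/J strain, was not tested.

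The secreted and surface effectors were below control in 4 of 4 at each time, with medians of -0.32, -0.47 and -0.26. Without control replicate 1 they were below in 3, 4 and 3 of 4, with medians of -0.13, -0.22 and -0.20. Ccl5, a chemokine of T and NK cells that many other cells make after stimulation, had 3.82, 4.06 and 3.84 at 24 h, 4.05, 3.97 and 4.17 at 48 h, and 4.10, 4.75 and 4.31 at 72 h, against 4.68, 4.37 and 5.0 in controls. At 24 and 48 h all arrays lay below all controls, and at 72 h all lay above the 24 h arrays and overlapped the controls. The differences were -0.78 ± 0.24 SE (unadjusted p = 0.00685, adjusted p = 0.351), -0.62 (adjusted p = 0.307) and -0.30 (adjusted p = 0.692, limma). Without HIFU 72 h replicate 2 the last was -0.48 (adjusted p = 0.904), and without control replicate 3 it was -0.14.

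Ifng, the cytokine interferon gamma, had 4.54, 4.40 and 4.36 at 24 h, 3.43, 4.47 and 4.39 at 48 h, and 4.47, 4.58 and 4.92 at 72 h, against 5.74, 4.45 and 4.32 in controls. Control replicate 1 alone was high. The differences were -0.40, -0.74 and -0.18 with that array and 0.05, -0.29 and 0.27 without it (adjusted p between 0.427 and 0.918 with it, limma). Fasl, the death ligand, and Xcl1, a chemokine for cross-presenting dendritic cells, differed by -0.04 to -0.31 over the 3 times. The transcription factors Eomes and Tbx21, which direct the killer program, were both in the lowest 25% by their mean over 12 arrays. Tbx21 had 3.17, 3.28 and 3.27 at 72 h, against 3.29, 3.60 and 3.54 in controls, so these 2 groups did not overlap, by a narrow margin (-0.24 ± 0.25 SE, adjusted p = 0.795, limma).

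**Figure D2:**
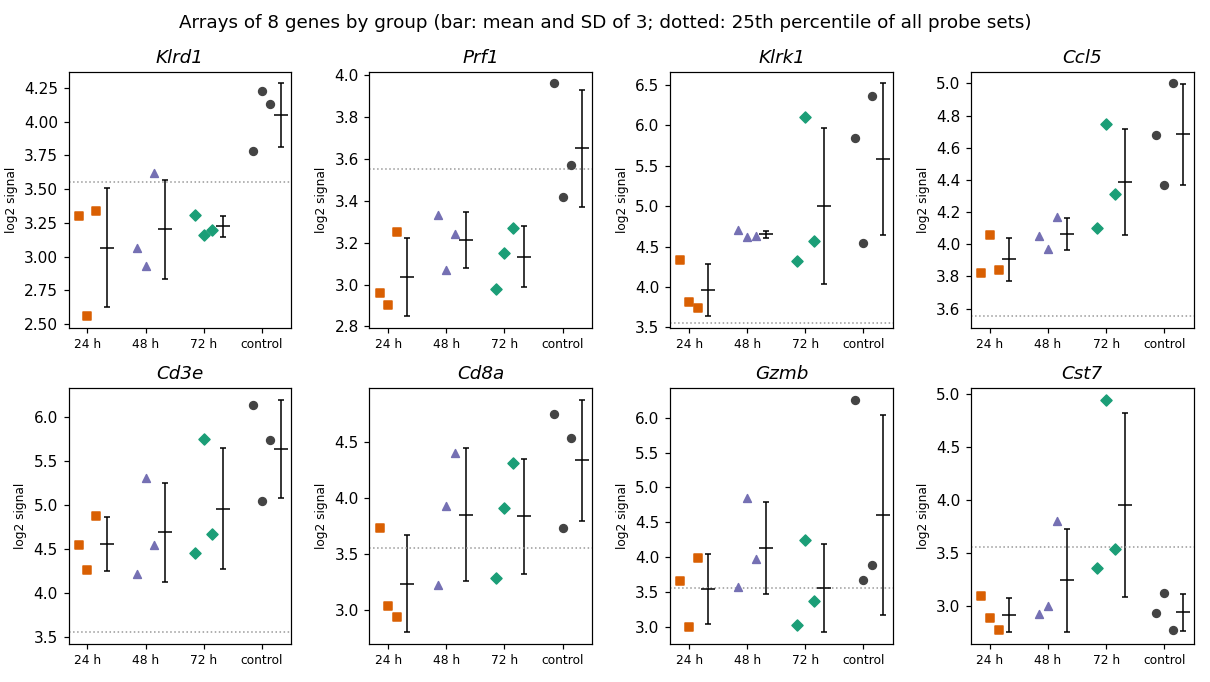
Log2 signal (vertical axis, own scale in each panel, not starting at 0) of 8 genes on the 3 arrays of each group, with the mean and SD beside them and a dotted line at the 25th percentile of all probe sets. Klrd1 and Prf1 are below control on all 9 HIFU arrays, Gzmb has 1 high control at 6.26, and Cst7 has 1 high 72 h array at 4.95.

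Counted over all 33 genes, the share with all HIFU arrays below all controls was above that of all probe sets at 24 h, below it at 48 h and close to it at 72 h, and the share with all arrays above was below that of all probe sets at each time. At 24 h, 0 of 33 passed the threshold (0.054% of all probe sets did, limma), 25 lay below control (75.8%, against 49.6%), and 6 had all arrays below all controls (18.2%, against 7.68% of probe sets). These 6 were Cd3e, Prf1, Klrd1, Klrk1, Klre1 and Ccl5, of which 5 are cytotoxic and NK genes, and 0 genes had all arrays above (6.84% of probe sets). At 48 h, 0 passed (0.0045%), 20 lay below control (60.6%, against 48.8%), and 3 lay below all controls (Prf1, Klrd1 and Ccl5, 9.09% against 11.7%) and 0 above (10.3%). At 72 h, 0 passed (0.00901%), 21 lay below control (63.6%, against 56.2%), 4 lay below all controls (Cd3g, Prf1, Klrd1 and Tbx21, 12.1% against 10.1%) and 2 above (Cd4 and Cst7, 6.06% against 8.99%). At an unadjusted p under 0.05 there were 6 genes at 24 h, all lower (18.2%, against 9.84% of probe sets in either direction, 3.98% higher and 5.86% lower). There were 3 at 48 h, all lower (9.09%, against 13.3%, 5.3% higher and 8.01% lower), and at 72 h 1 higher and 2 lower (9.09%, against 11.2%, 5.85% higher and 5.39% lower). The F test over the 3 times gave 0 past the adjusted threshold (0.00901%) and 3 at an unadjusted p under 0.05, Klrd1, Klrk1 and Ccl5 (9.34%). The members of such a list share arrays and cells, so these shares are descriptions.

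**Figure D3:**
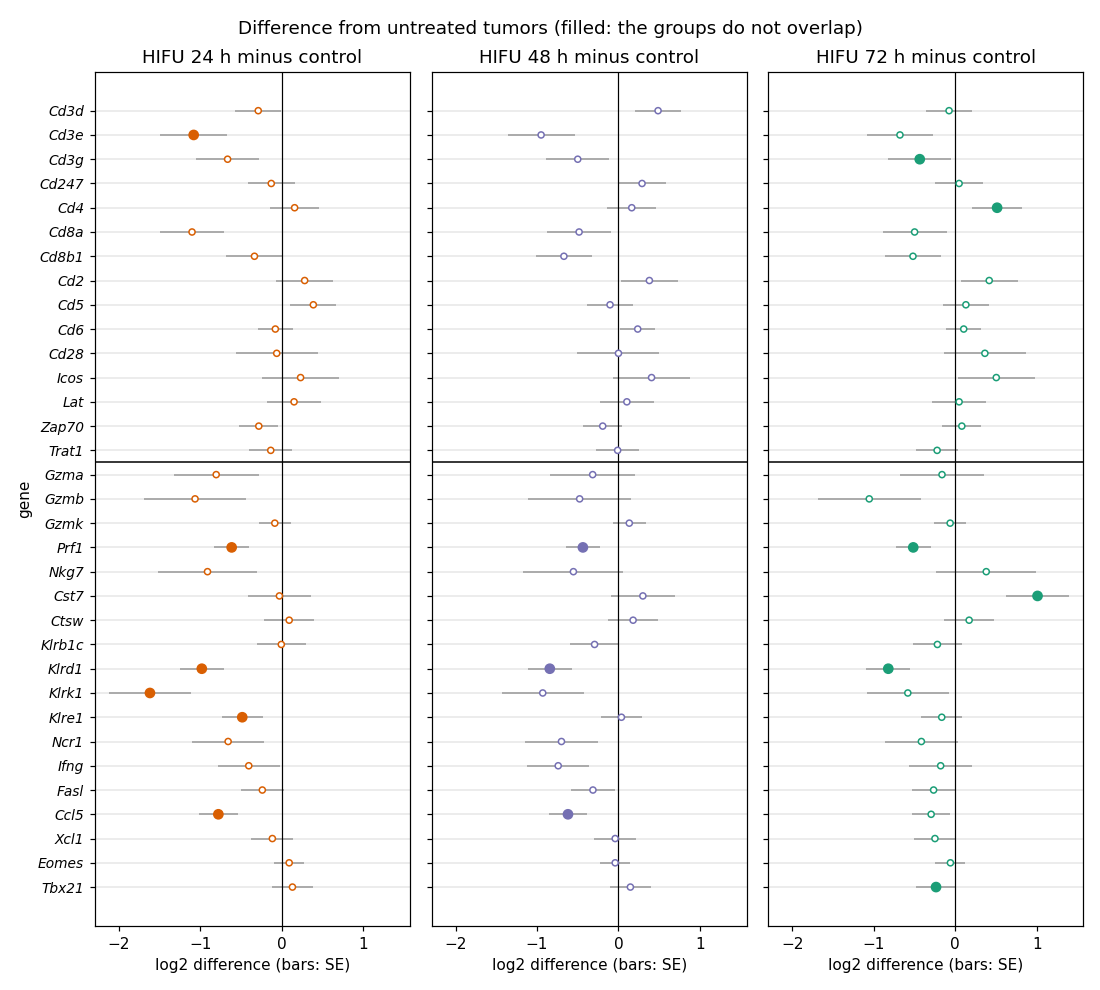
Log2 difference (horizontal axis) of each of the 33 genes at HIFU 24, 48 and 72 h from untreated tumors, with limma standard errors and filled points where the groups do not overlap. Filled points to the left number 6, 3 and 4 at the 3 times, and filled points to the right 0, 0 and 2; a difference of 0 is the vertical line.

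Between HIFU times, 0 of 33 genes passed in any pair, as did 0 of all probe sets (0%, limma; smallest adjusted p of the 33 genes 0.812). From the direct contrasts, 8 of 33 genes were lower at 48 h than at 24 h (49.7% of probe sets), 14 lower at 72 h than at 48 h (53.3%), and 9 lower at 72 h than at 24 h (54.8%). Cd3d, Klrk1 and Klre1 had 48 h arrays above all 24 h arrays (3.43% of probe sets), and 0 were below (3.7%). Cd6, Zap70, Ccl5 and Cst7 had 72 h arrays above all 24 h arrays (4.53%), and 0 were below (4.9%). Tbx21 had 72 h arrays below all 48 h arrays (6.73%), and 0 genes were above (4.7%). Cst7 was 1.04 ± 0.39 SE higher at 72 h than at 24 h (unadjusted p = 0.0214, adjusted p = 0.843, limma), and Cd3d and Cst7 were the only ones of the 33 with an unadjusted p under 0.05 in a pair of times (3.89%, 6.26% and 5.57% of probe sets for 48 h against 24 h, 72 h against 48 h and 72 h against 24 h).

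A pair of arrays each held the highest signal of many genes. HIFU 72 h replicate 2 was highest of the 12 arrays for 8 genes, namely Cd247, Cd4, Cd2, Cd28, Icos, Gzma, Nkg7 and Cst7 (24.2%, against 14.9% of all probe sets). Control replicate 1 was highest for 8 others, Cd3e, Cd8a, Zap70, Gzmb, Prf1, Ncr1, Ifng and Fasl (24.2%, against 10.8%). On HIFU 72 h replicate 2 the pan-leukocyte median lay 3.55 above the control mean, on control replicate 1 it lay 0.58 above, and the cytotoxic and NK median was -0.03 and 0.22 on these 2 arrays. On the other 10 arrays the cytotoxic and NK median lay between -0.43 and -0.12. The other control arrays, at -0.25 and -0.12, were among those 10.

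Markers of all leukocytes and of neutrophils were set beside the lymphocyte genes at 72 h. The 10 pan-leukocyte genes were above control at 72 h in 10 of 10, with a median of 1.76 that rested on 1 array. The array medians were 0.60, 3.55 and 0.73 at 72 h, against 0.58, -0.69 and 0.04 in controls, and without HIFU 72 h replicate 2 the list median was 0.66, with 9 of 10 above control. At 72 h, 2 of the 10 had all arrays above all controls (8.99% of all probe sets did). Past the threshold were 0 (0.00901% of probe sets), and 3 were higher at an unadjusted p under 0.05 (5.85%, limma). Those named by the F test were Coro1a (1.48, adjusted p = 0.309), Arhgap15 (1.93, adjusted p = 0.327) and Dock2 (1.747, adjusted p = 0.356, limma). All 11 measured neutrophil markers had 72 h arrays above all controls (8.99% of all probe sets did), with a median of 7.24 (smallest adjusted p = 0.079, limma). The 33 lymphocyte genes had a median of -0.17 at 72 h, with 21 below and 12 above control. B cell markers (9 of 10 measured) had a median of 0.15 and 5 of 9 in the lowest 25% by mean. Markers of innate lymphoid and gamma-delta T cells (8 of 11 measured) had medians of 0.62, 0.37 and 0.37 at 24, 48 and 72 h. Of these 8, 3 were in the lowest 25% by mean, and the 24 h differences ran from -0.13 to 3.67. Which cells gave these signals was not tested. Whether leukocyte and lymphocyte genes differed in their change was not tested.

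**Figure D4:**
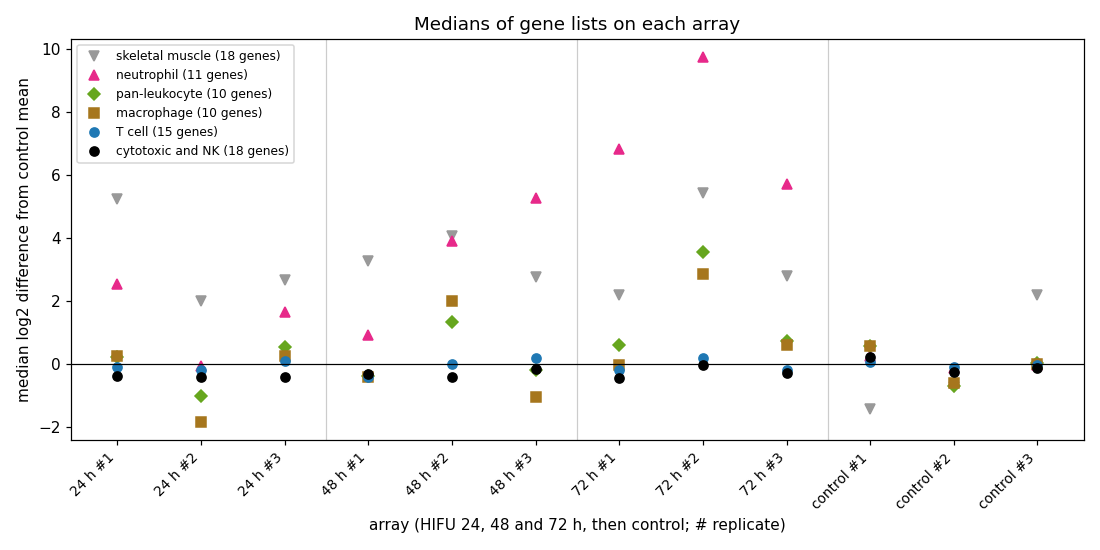
Median log2 difference from the control mean (vertical axis) of 6 gene lists on each array (horizontal axis, HIFU 24, 48 and 72 h and then control). Neutrophil markers reach 9.73 and pan-leukocyte genes 3.55 on HIFU 72 h replicate 2, while the T cell and the cytotoxic and NK medians stay between -0.43 and 0.22 on all 12 arrays.

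Among other genes of the same pathways, 0 passed the threshold in the 4 lists of antigen receptor signaling, cytokines, homing and further NK genes at any time (limma). Of 21 measured further NK receptors and granule genes, 17 lay below control at 24 h, 14 at 48 h and 15 at 72 h, with medians of -0.34, -0.21 and -0.25. Without control replicate 1 the medians were -0.20, -0.18 and -0.18. All arrays lay below all controls for 4, 2 and 5 of the 21 (7.68%, 11.7% and 10.1% of all probe sets) and above them for 0, 1 and 3 (6.84%, 10.3% and 8.99%). Slamf7, an activating receptor of NK and other immune cells, had 3.31, 3.59 and 3.86 at 24 h, 2.79, 5.43 and 5.05 at 48 h, and 4.14, 7.20 and 5.82 at 72 h, against 8.59, 5.82 and 6.92 in controls. It differed by -3.52 ± 0.88 SE at 24 h (adjusted p = 0.261), -2.69 at 48 h (adjusted p = 0.262) and -1.39 at 72 h (adjusted p = 0.594), with all arrays at 24 and 48 h below all controls. Cd244a, the receptor 2B4, had 3.79, 3.94 and 3.48 at 24 h, 3.93, 4.14 and 4.91 at 48 h, and 4.75, 4.78 and 4.57 at 72 h, against 7.0, 5.24 and 5.10 in controls. All 9 of its HIFU arrays lay below the controls (24 h difference -2.04 ± 0.45 SE, adjusted p = 0.205). Klrb1f differed by -1.24 at 24 h and 0.69 at 72 h (adjusted p = 0.408 and 0.600).

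Of 15 measured cytokines and receptors, 9 lay below control at 24 h and 6 at 72 h. Il15, the survival factor of NK cells, had 4.94, 5.04 and 4.60 at 24 h, 5.0, 6.83 and 5.12 at 48 h, and 6.30, 8.19 and 5.69 at 72 h, against 9.54, 8.21 and 5.79 in controls, with differences of -2.99 ± 0.88 SE, -2.20 and -1.12 (adjusted p = 0.336, 0.328 and 0.690). The 24 h arrays lay below all controls, and the controls themselves spread widely. Il2rb, a receptor chain shared by interleukins 2 and 15, differed by -0.97, -0.78 and -0.46, and Il18, a cytokine that primes interferon gamma, by 0.66, 0.40 and 2.14 (adjusted p of the last 0.309). Of 17 antigen receptor signaling genes, 11 lay below control at 24 h, 10 at 48 h and 7 at 72 h. The adaptor Grap2 differed by -1.35, -1.11 and -0.44 and the kinase Fyn by -1.59, -1.64 and -1.15. Prkcq, a kinase of T cells that skeletal muscle also expresses, differed by 2.08, 2.67 and 2.54, beside the muscle medians given above. The part of muscle in the Prkcq signal was not tested.

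The homing receptors had medians of -0.23, 0.23 and 0.20 over 11 measured genes. Cxcr6, a receptor of tissue-resident T and NK cells, differed by -0.48, 0.33 and -0.47, the integrin Itgal by -0.48, 0.24 and 1.05, and S1pr1, which endothelial cells also express, by 0.98, 1.05 and 1.06. Among 14 receptors and ligands of the genes' products, 1 passed, at 24 h (0.054% of all probe sets did). This was Cd72, a B cell coreceptor reported as a ligand of CD5. It had 7.73, 6.71 and 7.71 at 24 h, 7.06, 9.43 and 8.27 at 48 h, and 9.85, 10.15 and 9.47 at 72 h, against 14.66, 11.72 and 11.77 in controls. It was lower at 24 h (-5.33, adjusted p = 0.039, limma), and its differences of -4.46 at 48 h and -2.89 at 72 h did not pass (adjusted p = 0.199 and 0.281). At 24 h, 0 probe sets passed, Cd72 included, without control replicate 1 or 2 or without HIFU 24 h replicate 1 or 3. The B cell markers named above were dim, with median signals of 3.42, 3.40 and 3.36 on the controls. Which cells gave the Cd72 signal was not tested. The costimulatory ligand Icosl differed by -0.68, -0.60 and 0.31 and the death receptor Fas by -0.57, -0.36 and 0.23, with 0 past the threshold.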

How the data were processed

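The authors deposited 1 table of log2 signals, with 12 arrays as columns. No source states the log base, and base 2 was inferred from the size of the values. Transcriptome Analysis Console 4.0 is named, per the submitters' processing notes; the sources used here give no background correction, summarization, filter or build. Normalization between arrays makes each change relative to the other genes on an array. The number of arrays, 3 per group, limits the precision, and arrays give no read depth. Probe sets were named through the platform annotation and a RefSeq table of GRCm38.p6 (1 symbol for 19572, several for 0, none for 2634), keeping the probe set with the highest mean per gene. Listed genes without a named probe set were not analysed here.

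A mean per group was fitted to all 12 arrays with limma 3.58.1 in R 4.3.3 (prior degrees of freedom 3.37). Tests were two-sided and adjusted by Benjamini-Hochberg over 22206 probe sets, and the fit was tested on simulated data. A p-value rests on the spread within groups, pooled over all groups and moderated over all probe sets, so a gene's comparisons share a standard error. Nothing in the labels says that the tumors of a group were separate animals, so this spread may be technical. Genes were described with all arrays by role: the 6 T cell and 6 cytotoxic and NK genes with the smallest p of the moderated F test over the 3 times, and 8 standard markers; from other lists, up to 3 by that p. The members, lists and rules were chosen with earlier results of these data known. A further promoter motif is not reported here. Figures used Python 3.11.15.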

Additional observations from a re-analysis of the deposited data

How the results depend on the processing

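The count of 0 genes past the threshold (limma) held for the 33 genes in all 6 comparisons under median centring, quantile normalization, robust estimation with a trend on intensity, a fit of only the groups compared, averaging of probe sets per gene, leaving out the lowest 25% of probe sets (16 of the 33 then tested) and leaving out each array. Array weights gave 1 at 24 h and 1 at 72 h, both Klrd1, while calling 1118, 944 and 1846 probe sets at 24, 48 and 72 h, against 12, 1 and 2. An unadjusted p under 0.05 with a 2-fold change gave 3 genes at 24 h, 1 at 72 h and 1 for 72 h against 24 h, and 1198, 1626 and 1621 probe sets at the 3 times. Leaving out 1 array moved the probe set counts between 0 and 253, 0 and 312, and 1 and 194, the highest each without control replicate 3.

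The cytotoxic and NK median lay between -0.617 (without control replicate 2) and -0.174 (without control replicate 1) at 24 h, between -0.480 and -0.085 at 48 h, again lowest and highest without those controls, and at -0.548 at 48 h without the lowest 25% of probe sets, which leaves fewer genes. With control replicate 1 and HIFU 72 h replicate 2 both left out, chosen after seeing the data, it was again -0.174 and -0.085. These repeat the values without control replicate 1, because a 72 h array does not enter the differences at 24 and 48 h. They therefore say nothing on HIFU 72 h replicate 2, and the 72 h value of this setting is not given here. The T cell median at 72 h lay between -0.215 (without HIFU 72 h replicate 2) and 0.137 (without HIFU 72 h replicate 3). Of the 99 differences with control, 41 changed sign under some alternative, each of 0.503 or less in size. The cause was not tested.

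The labels give every group the replicate numbers 1 to 3, but same-numbered arrays deviated together (r above 0.1) in 4 of 18 pairs, so the numbers were not taken as pairs. With the replicate number as a block the 33 genes kept a count of 0, and 3, 0 and 1 probe sets passed at 24, 48 and 72 h.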
